A study of Mus musculus with 4 samples.

Results

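Late erythroid barcodes are the droplets in which transcripts of the 4 adult globin genes (Hba-a1, Hba-a2, Hbb-bs and Hbb-bt) made up at least 75% of all unique molecular identifiers (UMIs). They also had at least 1000 UMIs, at least 100 genes, at most 10% mitochondrial UMIs and at most 4 UMIs of the macrophage genes C1qa, C1qb and C1qc together. The rule left 1354 such barcodes among 10807 that met the same limits at any globin share, or 12.5% (exact Clopper-Pearson interval 11.9% to 13.2%), and among 15014 deposited. They are compared with the 1004 barcodes of 20 to 75% globin UMIs, called intermediate erythroid barcodes. All come from mouse bone at 8 weeks of age, from the proximal and distal tibia, whose trabecular cells were freed with dispase, collagenase and trypsin and captured on the 10x Genomics droplet system. The genotype is Col10a1Cre; Rosa26-Tdtomato; Irx3 +/Δ; Irx5 +/-, which the labels call a heterozygous control, and no PTH (parathyroid hormone) was given. The Cre is driven by Col10a1, a gene of hypertrophic chondrocytes. The 4 sample records were deposited as 1 matrix with no link from barcode to record, and the labels do not say whether they are separate animals. There are therefore no replicates and no tests here, and every interval is a 95% interval for counting error only.

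In erythroid maturation a dividing erythroblast fills with haemoglobin, leaves the cell cycle, condenses its nucleus and expels it. The remaining reticulocyte no longer transcribes and loses its mitochondria, ribosomes and surface proteins such as the transferrin receptor while it translates the messages it kept. Globin transcripts therefore come to dominate what can be sequenced, and haem, iron, membrane and ubiquitin genes are the classical companions of that stage.

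Of the 3 genes given as markers, Hba-a1 and Hbb-bs are part of the rule, so that their level is a description of the choice. Bpgm is not. It encodes bisphosphoglycerate mutase, which makes the 2,3-bisphosphoglycerate that lowers the oxygen affinity of haemoglobin, and lies at chr6:34476207-34505613 on the plus strand of GRCm38. Bpgm had a UMI in 97.3% of late erythroid barcodes (96.3% to 98.1%), with 0 UMIs in the lowest barcode, a median of 9 and a highest value of 40. In intermediate barcodes it had a UMI in 78.0% (75.3% to 80.5%), with a median of 4 and a highest value of 44. As a level of free RNA, the 3950 B lineage barcodes (under 20% globin, at least 3 UMIs of Cd79a and Cd79b) had a Bpgm UMI in 7.95% and a median of 0. Of the 7 other erythroid markers analysed, Alas2 had a UMI in 99.6% of late erythroid barcodes, while Epor and Klf1, the erythropoietin receptor and a master transcription factor of the lineage, had 16 UMIs each in all of them. The label names haemoglobin, but the measurement is of globin transcripts.

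The globin share in the chosen barcodes ran from 75.1% to 96.9% with a median of 89.5%. The median barcode held 5605.5 UMIs and 221 genes, against 7848.5 UMIs and 1380.5 genes in intermediate barcodes. Just inside the limit, at 75 to 77.5% globin, 61 barcodes had a median of 577 genes, and just outside it, at 72.5 to 75%, 65 barcodes had a median of 639. Malat1, as CPM (UMIs scaled to a common total, without globins), was 29825 inside and 25743 outside, and Slc4a1 11314 and 10335, so values on both sides of the limit were close. Before the other limits, 1474 barcodes had at least 75% globin. The minimum of 100 genes applied to 99 of them, whose median globin share was 95%, the mitochondrial limit applied to 20 and the C1q limit to 4, and a barcode can fail more than 1 of these limits.

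The rule fixes that little else than globin is left. Late erythroid barcodes held 668 UMIs of other genes on average and intermediate barcodes 4431, in sums of 904019 and 4448727. Levels are given below in 2 ways: as CPM without globins, which is a gene's scaled share of these other UMIs, and as mean UMIs per barcode. A gene with equal UMIs per barcode in both groups comes out 6.64 times higher in late erythroid CPM without globins, a log2 ratio of 2.73. On CPM of all UMIs every log2 ratio is lower by 2.16. Ratios are late over intermediate, with 0.5 counts added to each sum, and a gene was tested for size if at least 10 UMIs were expected in each group at a common level.

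**Figure D1:**
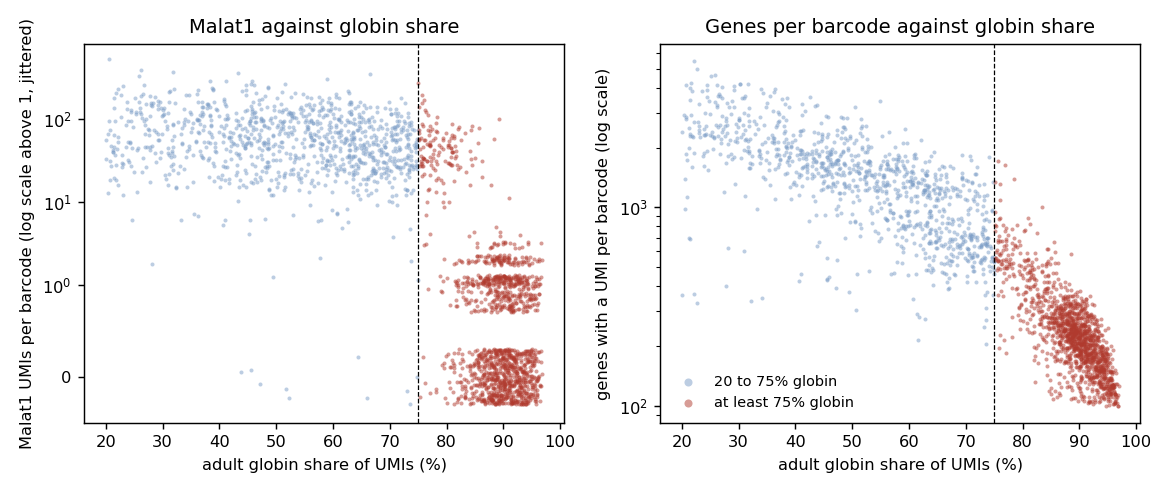
Malat1 UMIs (left) and genes with a UMI (right) per barcode against the globin share of UMIs in percent, for barcodes of 20 to 75% globin (blue) and of at least 75% (red); the dashed line is the limit of 75%. Between 75 and 85% globin most red barcodes fall into a set with 10 or more Malat1 UMIs or a set with 0 to 2. The median of genes per barcode is 541 at 75 to 80% globin, 340.5 at 80 to 85% and 221 over all red barcodes.

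Of the 6785 genes tested, 215 (3.17%) had at least 2-fold higher CPM without globins in late erythroid barcodes and 5025 (74.1%) at least 2-fold lower CPM. The median log2 ratio over all tested genes was -1.59. Those 215 genes held 57.3% of the late erythroid UMIs other than globin and 15.4% of the intermediate ones. In UMIs per barcode, 19 genes (0.28%) were above their intermediate mean and 6693 (98.6%) were at least 2-fold below it. The 10 leading genes took 25.2% of late erythroid UMIs other than globin and 12.6% of intermediate ones. At a matched depth of 200 such UMIs per barcode, late erythroid barcodes had a median of 111 genes, intermediate barcodes 160 and B lineage barcodes 167, with 33, 0 and 0 shallower barcodes left out. The remaining message was therefore carried by fewer genes, also at equal depth.

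Among the 215 genes, 83 had at least 3 times the UMIs per barcode of B lineage barcodes, and 106 had under 1.5 times. The latter include Col1a1 and Bglap, collagen and osteocalcin of bone-forming cells. They also include genes that B lineage cells can express themselves. Among these are mt-Co1 (15.9 UMIs per late erythroid and 70.9 per B lineage barcode) and Ubb (6.47 and 7.59). A place among the 106 is thus no measure of free RNA. Col1a1 had 0.191 UMIs per late erythroid barcode and 0.188 per intermediate barcode, and a UMI in 7.09%, 9.36% and 9.59% of late erythroid, intermediate and B lineage barcodes. Its log2 ratio of 2.75 is thus near the 2.73 that equal UMIs give. A second value moves with the comparison: 139 intermediate barcodes (13.8%) held at least 20 UMIs of the neutrophil genes S100a8 and S100a9, and 215 (21.4%) at least 5 of Cd79a and Cd79b, against 11 (0.812%) and 5 (0.369%) late erythroid barcodes. Without all of these, 233 genes were at least 2-fold higher and 3987 lower of 5842 tested, and members of the lists below numbered 64 higher and 453 lower in place of 72 and 463. The part of mixed droplets in the other values was not tested.

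Among the 15 highest log2 ratios were those of Hbq1a, Bpgm, Fam220a, Fam46c, Ptpn14, Ccndbp1, Ube2l6, Dcaf12, Mkrn1, Cat, Ube2o, Fam213a, Bnip3l and Slc25a39, and all 15 also had more UMIs per barcode than in intermediate barcodes. The others of the 19 were Alas2, Aldh1a1, Col1a1 and Bglap. Bpgm had 9.97 UMIs per barcode against 5.89, a CPM ratio of 11.2 (10.9 to 11.6), and its log2 ratio of 3.49 becomes 2.03 against barcodes of 60 to 75% globin alone. Fam46c, a cytoplasmic poly(A) polymerase that RefSeq lists as Tent5c, had 12.5 UMIs per barcode against 8.83, a ratio of 9.36 (9.12 to 9.60). Fam220a had 5.01 against 3.42 UMIs per barcode (ratio 9.73, 9.34 to 10.1). Hbq1a, a theta-like globin gene, led by ratio (13.9, 11.3 to 17.2) at a low level of 0.257 against 0.123 UMIs per barcode. Ptpn14 rests on 55 and 34 UMIs.

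The 15 lowest log2 ratios were those of Senp1, Cxcl10, Haspin, Mast2, Cdc25c, Melk, Zbtb22, Cdca5, Srbd1, Troap, Smim5, Cdc6, Pigyl, Golm1 and Pdcd7. All but Cdca5 (1 UMI) and Cdc6 (2 UMIs) had 0 UMIs in late erythroid barcodes. Set against a floor of 3 counts over the group, Senp1 was at least 15.6-fold lower in CPM without globins, Haspin, a mitotic histone kinase, at least 11.4-fold, and Cdc25c, a phosphatase of mitotic entry, at least 8.74-fold. Cdc6, which licenses replication origins, had 507 intermediate UMIs and a ratio of 0.0194 (0.00234 to 0.0705). In all, 51 tested genes had 0 late erythroid UMIs.

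The globins themselves form 2 clusters of near-identical copies, alpha on chromosome 11 and beta on chromosome 7. Hba-a1 lies at chr11:32283511-32284465 and Hba-a2 at chr11:32296489-32297298, both on the plus strand of GRCm38. Hbb-bs lies at chr7:103826534-103828096 and Hbb-bt at chr7:103812524-103813996, both on the minus strand. The coding sequences of each pair differ by 1 base in the GENCODE transcripts, set in capitals within 60 bases of each, as C381T for Hba-a1 against Hba-a2 and C417T for Hbb-bs against Hbb-bt, counted from 1 at the first coding base. After the coding part the alpha copies had 0 mismatches over 77 aligned bases, while the beta copies had 34 over 131. Reads from those 77 bases hold no base that tells the alpha copies apart, and the split of Hba-a1 from Hba-a2 depends on how the counting treated shared reads, which no source used here states.
Hba-a1: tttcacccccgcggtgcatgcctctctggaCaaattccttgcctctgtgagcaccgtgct
Hba-a2: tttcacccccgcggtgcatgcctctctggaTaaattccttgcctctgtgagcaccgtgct
Hbb-bs: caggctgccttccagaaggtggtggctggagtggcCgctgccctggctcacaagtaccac
Hbb-bt: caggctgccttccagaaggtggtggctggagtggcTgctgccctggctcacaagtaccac

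Late erythroid barcodes held 1268 Hba-a1, 1023 Hba-a2, 2190 Hbb-bs and 695 Hbb-bt UMIs on average, and intermediate barcodes 1007, 684, 1936 and 612. Ratios among the 4 were not used to choose the barcodes. Alpha globin was 44.3% of globin UMIs (44.2% to 44.3%) in late erythroid and 39.9% (39.8% to 39.9%) in intermediate barcodes. Across globin shares it was 37.5% at 20 to 40%, 42.0% at 75 to 80%, 46.0% at 85 to 90% and 43.4% at 95 to 100%, so the highest value lay inside the late range and not at its end. Single barcodes scattered widely around this: the standard deviation over barcodes was 4.97 percentage points at 85 to 90%. Hba-a1 made up 55.4% of alpha UMIs in late erythroid and 59.6% in intermediate barcodes. Hbb-bs made up 75.9% and 76.0% of beta UMIs.

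**Figure D2:**
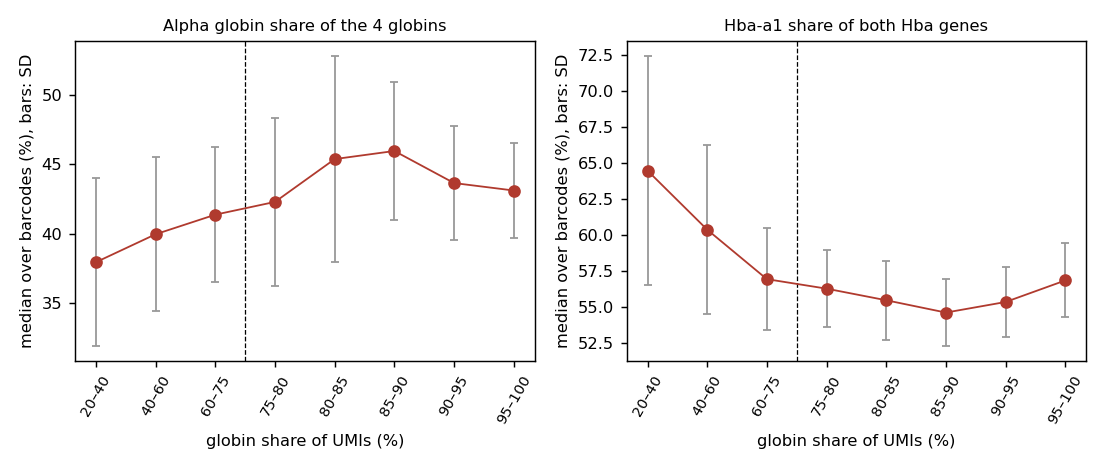
Median over barcodes, with the standard deviation over barcodes as bars, of the alpha share of the 4 globins (left) and of the Hba-a1 share of both Hba genes (right), in percent, for 8 ranges of the globin share; the dashed line is the limit of 75%. The alpha share is highest at 85 to 90% globin with a median of 45.9%, and the Hba-a1 share lowest there with 54.6%.

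Among genes of haem synthesis and export, 19 of 20 were tested, 5 at least 2-fold higher and 10 at least 2-fold lower in CPM without globins, with a median log2 ratio of -1.46 beside -1.59 for all genes. Among all genes tested 3.17% were higher and 74.1% lower. The first and the last enzyme were among the higher genes of the list. Alas2, the erythroid enzyme of the first step (chrX:150547375-150570638, plus strand), had a median of 12 UMIs (0 to 37) in late erythroid and 11 (0 to 49) in intermediate barcodes, means of 12.1 and 11.9, and a log2 ratio of 2.75. Slc25a39, a mitochondrial carrier, kept 1.89 UMIs per barcode against 1.85. Fech, which inserts the iron in the last step, had 4.21 against 6.45 UMIs per barcode and a log2 ratio of 2.12. Steps between them were among the lower genes: Alad had 0.0628 against 2.67 UMIs per barcode (-2.67), Cpox 0.103 against 4.57 (-2.73) and the porphyrin carrier Tmem14c 0.0288 against 2.48 (-3.68). The whole list took 3.25% of UMIs other than globin in late erythroid and 1.14% in intermediate barcodes, and 5.47% in those of 95 to 100% globin, where Alas2 still had 9.89 UMIs per barcode.

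The promoters of Bpgm and Alas2 are printed because both genes hold their UMIs per barcode where most genes do not. Each line gives the 250 bases up to the start of transcription from RefSeq (GRCm38.p6), chr6:34476106-34476355 for Bpgm and chrX:150547167-150547416 for Alas2, both on the plus strand. The gene coordinates given above start earlier, at 34476207 for Bpgm and 150547375 for Alas2, so the end of each stretch lies within the gene by that annotation. Capitals mark matches on either strand to AGATAA, a motif of GATA factors, and to CCNCNCCC, a motif of the Klf1 family. Matches of the second motif overlap each other in Alas2. By the earlier starts all marked CCNCNCCC matches lie within the genes, and the AGATAA match of Alas2 lies before its gene.
Bpgm: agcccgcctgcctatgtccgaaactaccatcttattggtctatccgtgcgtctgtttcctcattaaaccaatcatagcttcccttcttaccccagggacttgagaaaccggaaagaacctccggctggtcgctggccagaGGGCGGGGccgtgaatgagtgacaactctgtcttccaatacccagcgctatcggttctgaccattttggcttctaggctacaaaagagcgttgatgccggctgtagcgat
Alas2: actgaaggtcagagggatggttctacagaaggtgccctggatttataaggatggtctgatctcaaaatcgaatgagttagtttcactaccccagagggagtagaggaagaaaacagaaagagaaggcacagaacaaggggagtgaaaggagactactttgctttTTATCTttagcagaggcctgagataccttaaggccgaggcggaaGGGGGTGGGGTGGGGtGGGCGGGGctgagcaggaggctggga

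Bpgm had 0 matches to AGATAA and 1 to CCNCNCCC, and Alas2 had 1 and 4. Of all 32851 promoters in that table, which run from 250 bases before to 50 after the start, 9.99% held AGATAA and 45.9% CCNCNCCC. Of the 215 higher genes, 158 were found there by name, and among their 211 promoters the shares were 9.95% and 64.0%. These are descriptions of letters and not of bound sites.

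For iron, 18 of 21 listed genes were tested, 6 higher and 8 lower, with a median log2 ratio of -0.69. Among all genes tested 3.17% were higher and 74.1% lower, with a median of -1.59. The higher genes included Ncoa4, the receptor that delivers ferritin to autophagy (2.42), the iron-sulphur cluster genes Iscu (2.35) and Isca1 (2.30), and Slc25a37 (mitoferrin), the mitochondrial iron importer, which had 6.52 against 15.8 UMIs per barcode (1.45, and -0.71 on all UMIs). Uptake genes had few UMIs per late erythroid barcode. Tfrc, the transferrin receptor, had a UMI in 15.2% of late erythroid and 75.7% of intermediate barcodes, which held 668 and 4431 UMIs other than globin on average. Its mean was 0.352 against 5.23 UMIs. The log2 ratio of -1.16 lies above the median of all genes. The B lineage barcodes had a Tfrc UMI in 33.9%, so the late erythroid share lies below that level, which B lineage cells can also set themselves. Slc11a2 (-3.24) and Steap3 (-3.04), which act on iron in the endosome, had 0.00443 and 0.00148 UMIs per late erythroid barcode.

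The red cell membrane genes were mixed: 32 of 34 were tested, 5 higher and 12 lower, with a median log2 ratio of -0.71. That median lies above the -1.59 of all genes tested, of which 3.17% were higher and 74.1% lower. Epb41, protein 4.1 of the spectrin junction, had a median of 6 UMIs (0 to 28) in late erythroid and 6 (0 to 45) in intermediate barcodes and a log2 ratio of 2.71. Mpp1, which binds protein 4.1, followed with 1.68 against 2.03 UMIs per barcode (2.45). Slc4a1, the anion exchanger band 3, had a median of 3 UMIs (0 to 50) against 24 (0 to 121), which is 0.75 on the log2 CPM scale and not a 2-fold difference. The lowest members were the water channel Aqp1 (-2.98), Gypc (-2.82) and Icam4 (-2.66). Carbonic anhydrase 2, Car2, which hydrates carbon dioxide, ran parallel to Slc4a1 at a median of 3 against 26 UMIs (0.59), and Car1 was at 0.0126 against 0.454 UMIs per barcode (-2.41). Of the gas transport list, 6 of 10 genes were tested, 0 higher and 2 lower (Car1 and Aqp1). Without the barcodes rich in neutrophil or B lineage UMIs, 3 membrane genes were higher and 18 lower.

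**Figure D3:**
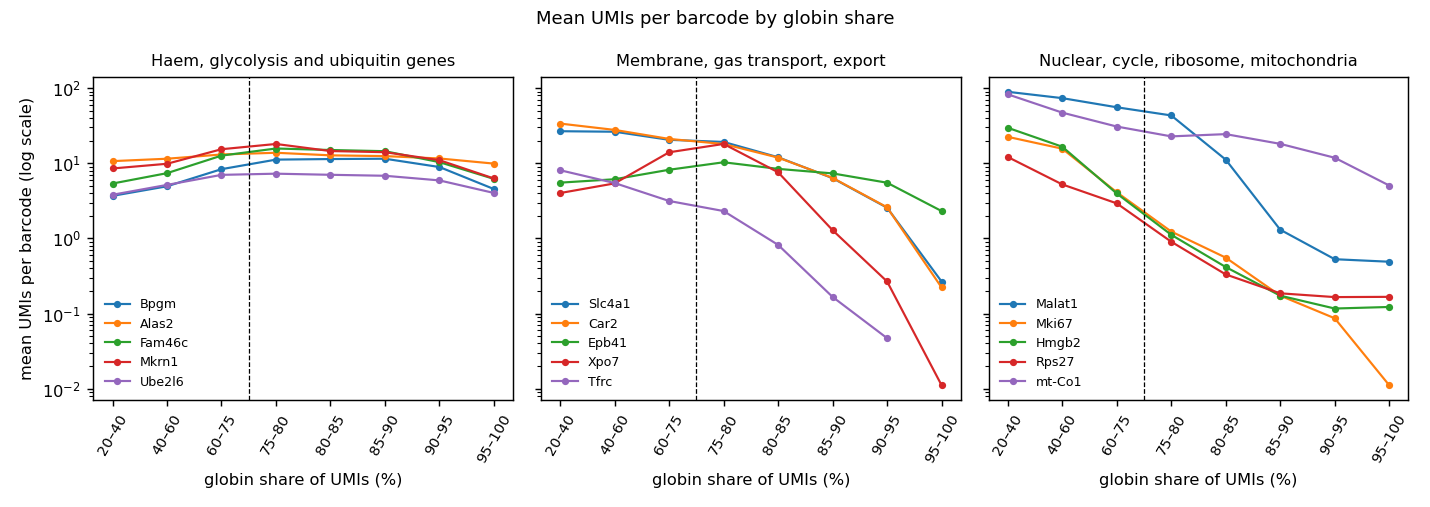
Mean UMIs per barcode (log axis) of 15 genes in 8 ranges of the globin share of UMIs in percent; lines join the ranges, points at 0 are left out, and the dashed line is the limit of 75%. Bpgm and Alas2 stay within 4.53 to 13.8 UMIs above the limit, while Slc4a1 goes from 19.2 to 0.267 and Xpo7 from 18.1 to 0.0111.

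Within the late range the genes parted further, as the plot of mean UMIs by globin share shows; its genes were picked after their values were seen. Alas2 had 13.8 UMIs per barcode at 75 to 80% globin and 9.89 at 95 to 100%, Bpgm 11.2 and 4.53, and Mkrn1 18.0 and 6.27. Slc4a1 had 19.2 and 0.267, and Car2 18.0 and 0.222. Epb41 lay between, with 10.3 and 2.31. Several genes were highest near the limit: Xpo7, an exportin used in nuclear condensation, had 4.01 UMIs per barcode at 20 to 40% globin, 14.0 at 60 to 75%, 18.1 at 75 to 80% and 0.267 at 90 to 95%. Its log2 ratio of 1.2 against all intermediate barcodes therefore turns to -0.52 against those of 60 to 75% and -0.96 on all UMIs. Only 90 barcodes reached 95% globin, with a median of 240 UMIs other than globin.

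The list of ubiquitin genes, written for late erythroid cells, had the most higher members by count. Of 45 genes 43 were tested, 17 higher and 8 lower, and the median log2 ratio was 0.28. Of all genes tested 3.17% were higher. By share of tested members the mitochondrially encoded genes (8 of 13) and the maturation list (10 of 24) stood above it. Against intermediate barcodes of 60 to 75% globin alone, 6 were higher and 6 lower, with a median of -0.24. The median of all genes tested in that comparison was -1.19. The conjugating enzymes Ube2l6 (6.33 against 5.51 UMIs per barcode, 2.93), Ube2o (3.19 against 2.97, 2.83) and Ube2h (2.14 against 2.51, 2.5) and the ligase Mkrn1 (12.7 against 11.6, 2.86) stood at the top. Ube2o is known to mark ribosomal proteins for destruction in reticulocytes. Ubb, a ubiquitin gene, had 6.47 against 9.54 UMIs per barcode (2.17). Gid4 (-1.91) and Gid8 (-1.88), of a ligase complex that serves erythroid maturation, were lower, not far from the median of -1.59 for all genes. Other listed members of that complex went both ways. Ypel5 (1.92) and Rmnd5a (1.24) were higher, Ranbp10 (0.58) was within 2-fold, and Armc8 (-1.60), Ranbp9 (-1.48) and Maea (-1.18) were lower. On all UMIs 0 members were higher and the median was -1.88. The list took 7.35% of UMIs other than globin in late erythroid and 1.96% in intermediate barcodes. Of the proteasome genes, 46 of 50 were tested, 2 higher and 36 lower, the higher ones being Psme3 (2.27) and Psmd4 (1.10), with a median of -1.60 that lies at the median of all genes.

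Genes of maturation, mitophagy and autophagy gave 10 higher and 4 lower of 24 tested and 27 listed, with a median log2 ratio of 0.37 (-1.79 on all UMIs). Among all genes tested 3.17% were higher and 74.1% lower. Against barcodes of 60 to 75% globin alone, 3 were higher and 4 lower, where the median of all genes tested was -1.19. Bnip3l, the receptor through which reticulocytes clear mitochondria, had 6.24 against 6.03 UMIs per barcode (2.78). Gabarapl2 (2.70) and Map1lc3b (1.96), which decorate autophagosomes, were higher, while Atg5 (-3.06) and Atg7 (-2.69), which conjugate such proteins, were lower at 0.00222 and 0.00148 UMIs per barcode.

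The mitochondrially encoded genes were higher as a group in CPM without globins: all 13 were tested, 8 higher and 0 lower, within log2 ratios of 0.60 to 1.27 and with a median of 1.02 that turns to -1.15 on all UMIs. Against barcodes of 60 to 75% globin alone 1 was higher, with a median of 0.84, beside -1.19 for all genes tested there. They took 10.8% of UMIs other than globin in late erythroid and 5.30% in intermediate barcodes. Per barcode they held 72.0 UMIs against 235. The share moved in a step, from 5.95% at 75 to 80% globin to 11.8% at 80 to 85%, and was 9.94% at 95 to 100%. The limit on mitochondrial share is part of the rule, is taken over all UMIs and bounds the values of both groups. At a limit of 20% in place of 10%, 1371 late erythroid and 1040 intermediate barcodes would be chosen. Over UMIs other than globin the limit is tighter for intermediate barcodes. Their highest mitochondrial share of these UMIs was 23.7%, against 72.5% in late erythroid barcodes. The part of the limit in the ratios was not tested. Nuclear genes of oxidative phosphorylation did not share the pattern, with 2 higher (Cox7b and Atp5l) and 54 lower of 85 tested and 102 listed, and a median of -1.32. Among all genes tested 3.17% were higher and 74.1% lower, with a median of -1.59.

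Late erythroid barcodes also divided by Malat1, a long noncoding RNA that stays in the nucleus (chr19:5795690-5802672, minus strand). Malat1 had a median of 0 UMIs (0 to 271) in late erythroid barcodes, 53.5 (0 to 529) in intermediate barcodes and 78 in B lineage barcodes. Of the 1354 barcodes, 1192 (88.0%) had 0 to 2 Malat1 UMIs, 32 had 3 to 9 and 130 (9.60%) had 10 or more, so that few lie between. The share with 10 or more was 78.6% at 75 to 80% globin, 24.7% at 80 to 85%, 1.51% at 85 to 90%, 0.188% at 90 to 95% and 0 of 90 barcodes above. Thinned to 200 UMIs other than globin, Malat1 had a UMI in 27.8% of late erythroid, 87.8% of intermediate and 87.0% of B lineage barcodes. The cut points at 3 and 10 UMIs were set after the values were seen.

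At 80 to 85% globin both kinds were present side by side, 123 barcodes with 0 to 2 Malat1 UMIs and 41 with 10 or more. Their median globin shares were 83.3% and 81.3%, and their median UMIs 4839 and 7439. Xpo7 had 3.54 UMIs per barcode in the first and 20.1 in the second, Tfrc 0.431 and 2.02, the linker histone gene Hist1h1c 0.114 and 0.927, and Neat1, another nuclear RNA, 0.0650 and 1.98. Slc4a1 had 9.65 and 19.4. Bpgm (11 and 12.7), Alas2 (12.4 and 13.7) and Fam46c (14.4 and 17.2) were closer to each other. Mitochondrially encoded genes went the other way, with 133 and 75.8 UMIs per barcode, or 15.7% and 5.09% of UMIs other than globin. Alpha globin was 46.8% of globin UMIs in the first and 40.3% in the second, a gap wider than that between all late erythroid and all intermediate barcodes. The neutrophil gene S100a8 had 1.5 and 5.00 UMIs per barcode, and its part in these differences was not tested.

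**Figure D4:**
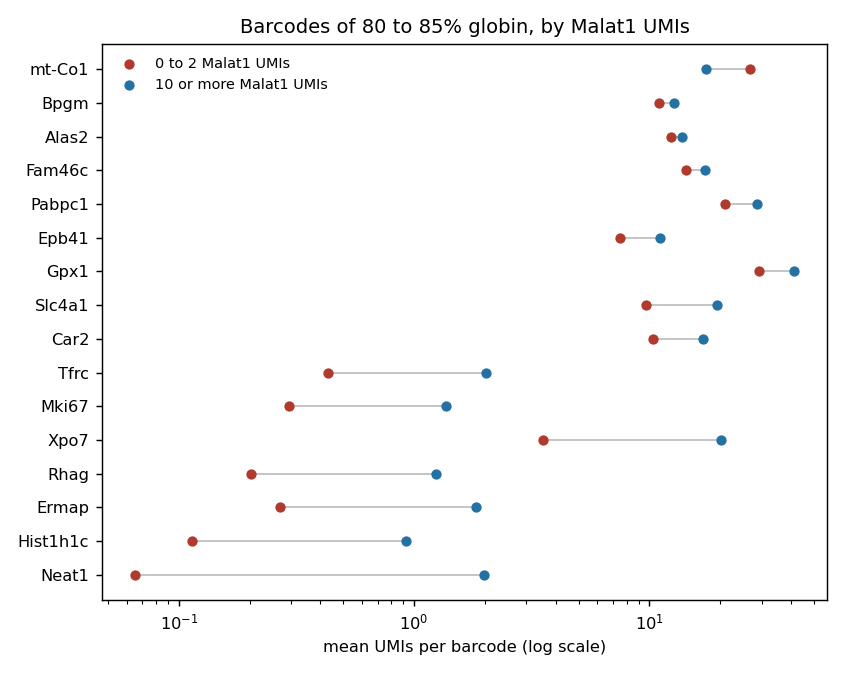
Mean UMIs per barcode (log axis) of 16 genes in barcodes of 80 to 85% globin, with 0 to 2 Malat1 UMIs (red, 123 barcodes) and with 10 or more (blue, 41 barcodes). Bpgm and Alas2 nearly coincide, Xpo7 and Neat1 are far lower in the red set, and mt-Co1 is higher there at 26.8 against 17.5.

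Most cycle genes were at least 2-fold lower, beside 74.1% of all genes tested. Of S phase genes 35 of 35 were at least 2-fold lower, with a median log2 ratio of -2.96, and Pcna, the replication clamp, had 0.0318 against 2.09 UMIs per barcode. Of G2 and mitosis genes 43 of 46 were lower with a median of -3.26, among them Mki67 at 0.256 against 13.0 (-2.94) and Top2a at 0.0554 against 4.71 (-3.67). The 3 that were not lower were Nusap1 (0.73), Ube2c (0.28) and Pttg1. Pttg1 encodes securin and had 0.355 against 0.358 UMIs per barcode (2.72), at 0.311 still in barcodes of 95 to 100% globin. Histones gave 0 higher and 28 lower of 33 tested and 36 listed (median -2.34), and chromatin and nuclear housekeeping genes 0 higher and 27 lower of 30 tested and 31 listed (median -2.30), with Dek lowest at 0.0325 against 6.03 UMIs per barcode (-4.79). In the list of nuclear condensation and enucleation 3 genes were higher (Fam46c, Cdr2 and Xpo7) and 24 lower of 33 tested and 38 listed, a share of lower genes near that of all genes. Against barcodes of 60 to 75% globin alone the S phase list had 7 lower members in place of 35, and the mitosis list 40. In that comparison 5260 genes were tested anew, with a median of -1.19, and fewer list members can pass the filter. The S phase list summed to 7874 CPM without globins at 20 to 40% globin, 4740 at 40 to 60%, 1063 at 60 to 75% and 806 at 75 to 80%. Its level was thus already low just outside the limit. Nuclear noncoding RNAs gave 0 higher and 4 lower of 6 tested and 16 listed, too few to set against all genes.

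The share of lower genes among erythroid transcription factors was below the 74.1% of all genes. Of 32 transcription factors 30 were tested, 0 higher and 19 lower, with a median log2 ratio of -1.54, near that of all genes. Gfi1b (-3.84), Klf1 (-3.82) and Gata1 (-2.90), core factors of the lineage, had 0.00222, 0.0118 and 0.0103 UMIs per barcode. Foxo3, which acts late in the lineage, had 0.247 against 1.32 (0.32). Of the erythropoietin and survival genes 19 of 29 were tested, 1 higher and 16 lower. The higher one was Bcl2l1, the survival gene whose product is Bcl-xL, with 1.82 against 1.94 UMIs per barcode (2.64), while Epor had 0.0118 against 0.631 (-2.97). Of 20 progenitor genes 8 were tested, 0 higher and 6 lower.

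Ribosomal protein genes were more often at least 2-fold lower than all genes, with a median near theirs, and translation factors were near all genes in both. Of 83 ribosomal protein genes 80 were tested, 0 higher and 73 lower, with a median log2 ratio of -1.68 beside -1.59 for all genes. They took 4.16% of UMIs other than globin against 11.2%, and 27.8 against 495 UMIs per barcode. Within the late range their share was 4.30% at 75 to 80% globin, 3.63% at 80 to 85% and 6.38% at 95 to 100%. Translation factors gave 2 higher and 34 lower of 46, a share of lower genes near the 74.1% of all genes, with a median of -1.63. The higher ones were the poly(A)-binding protein gene Pabpc1 (13.3 against 17.0 UMIs per barcode, 2.38) and Eif5 (5.30 against 5.75, 2.61). Eef1a1, the elongation factor, was at 0.535 against 10.2 (-1.52). The gene with the most UMIs after globin was Gm42418, listed by RefSeq under the 18S ribosomal RNA related Rn18s-rs5, with 38.6 against 73.6 UMIs per barcode and 5.78% of UMIs other than globin.

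**Figure D5:**
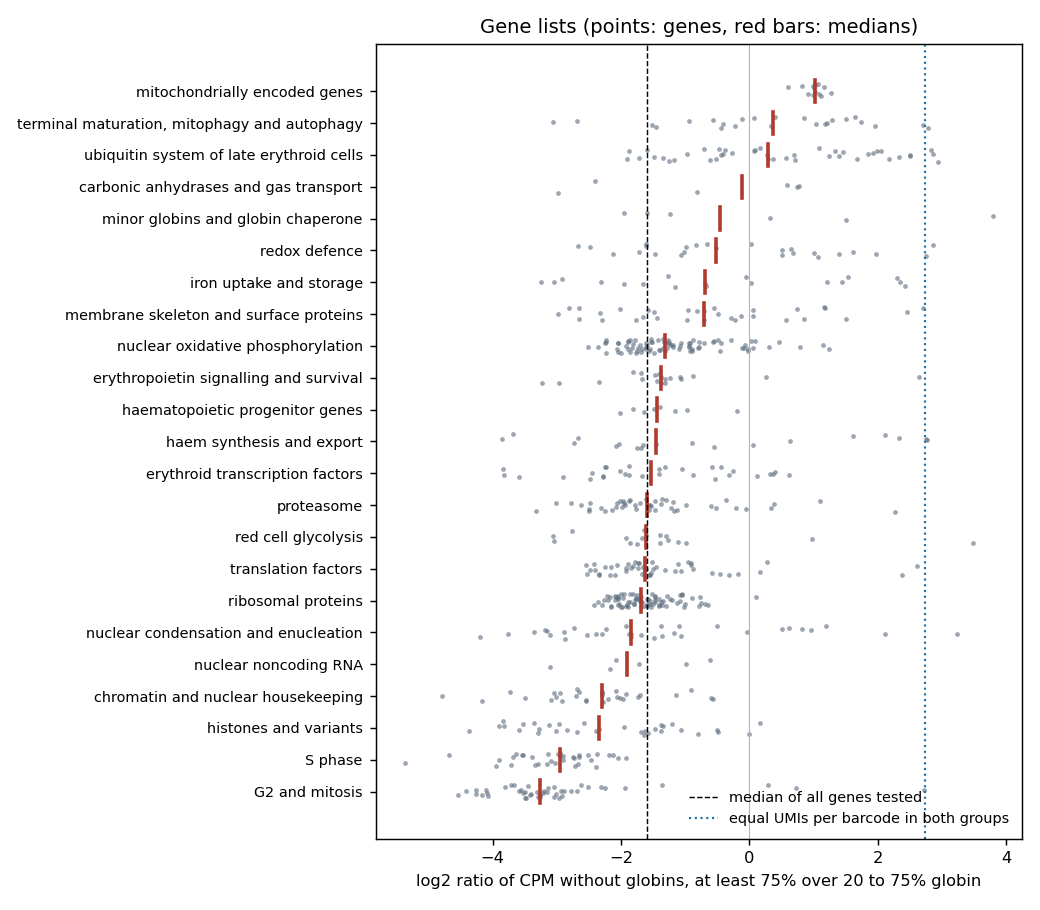
Log2 ratios of CPM without globins, late erythroid over intermediate barcodes, for the tested members of 23 lists (points) with their medians (red bars); the dashed line is the median of all genes tested (-1.59) and the dotted line equal UMIs per barcode (2.73). Only the mitochondrially encoded, maturation and ubiquitin lists have a median above 0 on this scale, and none of the 3 has on all UMIs, and mitosis genes have the lowest.

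In glycolysis Bpgm stood alone, while redox defence had several higher genes. Among all genes tested 3.17% were higher and 74.1% lower, with a median log2 ratio of -1.59. Of 23 glycolysis genes 17 were tested, and Bpgm was the 1 higher gene. The 14 lower ones included Gapdh (0.0857 against 2.17 UMIs per barcode, -1.93) and Eno1 (-3.06). The median of the list was -1.61, near that of all genes. Bpgm alone thus had 9.97 of the 11.2 UMIs per barcode of the list. In redox defence 25 of 28 were tested, 7 higher and 9 lower (median -0.52). Gpx1, the glutathione peroxidase of red cells, had 22.3 against 37.8 UMIs per barcode (1.97, and -0.19 on all UMIs), Cat, catalase, 2.27 against 2.08 (2.86) and Aldh1a1 0.721 against 0.712 (2.75). Prdx2 had 5.07 against 21.4 (0.65), and Prdx5 (-2.49) and Gclc (-2.67) were lowest. Of the minor globin list 6 of 12 were tested, 2 higher (Hbq1a and Hbq1b) and 3 lower.

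Markers of other cell types were low. The 11 neutrophil markers summed to a median of 4 UMIs per late erythroid barcode (0 to 811), 7 in intermediate and 6 in B lineage barcodes, and to 8725 CPM without globins in late erythroid barcodes. S100a8 had a UMI in 65.8%, 79.7% and 76.9% of these barcodes. The 10 B lineage markers had a median of 0 UMIs and a highest sum of 78, and the 9 monocyte or macrophage markers a median of 0 and a highest sum of 33. Platelet markers had a UMI in 1.99% of late erythroid barcodes, with Gp1bb at 0, T or NK markers in 2.73% with Trac at 0, and endothelial markers in 0.443% with Cdh5 and Emcn at 0. The 6 osteoblast or stromal markers had a UMI in 19.2%, against 25.3% of intermediate and 24.5% of B lineage barcodes. Scrublet marked 21 late erythroid barcodes (1.55%) and 196 intermediate ones (19.5%) as doublets.

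Sequences added to the genome were counted in a separate deposited matrix and were rare. The tdTomato sequence had 1 UMI in the 1354 late erythroid barcodes (0.0739%, 0.00187% to 0.411%) and Cre 0 (exact interval up to 0.272%; a floor of 3 counts is 0.222% of barcodes). WPRE, another added sequence, had 32 UMIs, or 35.4 CPM without globins (24.2 to 49.97), against 33.3 (28.1 to 39.1) in intermediate and 41.7 (39.2 to 44.2) in B lineage barcodes. It had a UMI in 1.99%, 11.4% and 20.7% of those barcodes, whose UMIs other than globin differ as given above.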

How the data were processed

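Trabecular bone cells of mouse tibia were profiled on the 10x Genomics system, and the 4 sample records share 1 matrix of UMI counts. The deposited counts are whole UMIs per gene and barcode, made with Cell Ranger 3.1.0 on mm10, with Seurat 3 also named, per the submitters' processing notes. Nothing in them had been normalized. Counts were read in Python 3.11.15 with numpy 2.4.6, scipy 1.17.1 and pandas 2.3.3, and doublets marked with Scrublet in scanpy 1.11.5 but kept. The library held 90273806 UMIs in 15014 barcodes, with a median of 3812.

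With 1 pooled library there was no test: groups were compared by summed UMIs, as CPM without the 4 globins and as UMIs per barcode. Intervals are exact (Poisson, Clopper-Pearson, or binomial for a ratio of sums) at 95% and cover counting error only. "Higher" and "lower" mean at least 2-fold among genes with at least 10 UMIs expected in each group. The ratio step was tested on simulated data. The members and gene lists were chosen with earlier results of these data known. Genes named are the 15 highest and 15 lowest ratios, the 3 highest and 3 lowest tested members of each list and its defining members; Gm42418 and the genes in the plots by globin share and Malat1 were chosen after their values were seen. Some genes that this rule selects are not reported here.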

Additional observations from a re-analysis of the deposited data

How the results depend on the processing

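No paired analysis was possible because the 4 records were deposited as 1 matrix with no link from barcode to record, and for the same reason no replicate could be left out. The 26 alternatives changed 1 choice each. Of them, leaving out barcodes rich in neutrophil or B lineage UMIs, dropping the gene minimum and comparing with barcodes of 60 to 75% globin were chosen after seeing the data. Where a value moved, the cause was not tested unless the alternative itself sets it. Depth limits the late barcodes: counts of low genes rest on few UMIs.

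The share of 12.5% was 13.7%, 11.6% and 5.76% at globin limits of 70%, 80% and 90%, 13.8% from 2000 UMIs up, 22.3% and 10.8% at mitochondrial limits of 5% and 20%, 7.93% with at least 200 genes and 13.3% with no gene minimum. The 215 higher genes became 132 at a globin limit of 90%, 4 on all UMIs, 138 against barcodes of 50 to 75% globin, 111 against 60 to 75%, 1194 with a filter of 1 UMI, 332 at 1.5-fold and 118 at 3-fold. The 5025 lower genes became 2557 at a limit of 90%, 7699 with a filter of 1 UMI, 1718 with 50 expected UMIs and 3179 against 60 to 75%. The counts of 111 and 3179 against 60 to 75% are out of 5260 genes tested there. Of list members, 72 higher became 3 on all UMIs, 45 against 50 to 75%, 38 against 60 to 75% and 40 at 3-fold, and 463 lower became 289 against 60 to 75%.

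The alpha globin difference of 4.36 points was 4.43 at a limit of 70%, 1.18 at 90%, 3.70 without the barcodes of most marker UMIs, 4.27 without mixed barcodes, and 6.32, 3.18 and 2.84 against 20 to 50%, 50 to 75% and 60 to 75% globin. The 9.60% of late barcodes with at least 10 Malat1 UMIs was 16.8%, 3.92% and 0.161% at 70%, 80% and 90%, and 16.0% with at least 200 genes. Median genes at matched depth were 67 at 100 UMIs. Neutrophil markers at 8725 CPM were 9651, 8040 and 9292 at 70%, 80% and 90%, 8310 with at least 200 genes, 6775 without doublets, 6588 without the barcodes of most marker UMIs, 6668 without mixed barcodes, 997 on all UMIs, 9781 without mitochondrial genes and 10259 without ribosomal protein genes too. WPRE was 4.04 CPM on all UMIs.

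Xpo7 turned to -2.13 at a limit of 90%, -0.96 on all UMIs, -0.74 as a mean of per-barcode CPM and -0.52 against 60 to 75% globin. On all UMIs the mitochondrially encoded median turned to -1.15, mt-Co1 to -1.07, Gpx1 to -0.19, Slc25a37 to -0.71 and Fech to -0.045.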

Other observations

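Rsad2 is described because its values were seen to be high; it was in no list. Rsad2, which encodes the antiviral protein viperin, had 4.42 UMIs per late erythroid barcode, 4.96 per intermediate and 0.0663 per B lineage barcode, a log2 ratio of CPM without globins of 2.57. It had 9.87 UMIs per barcode at 75 to 80% globin and 0.633 at 95 to 100%. At a matched depth of 200 UMIs other than globin, Rsad2 had a UMI in 59.0% of late erythroid, 23.5% of intermediate and 0.177% of B lineage barcodes.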
